A study of Mus musculus with 6 samples.

Results

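The cytosolic ribosomal proteins are the protein parts of the 2 ribosomal subunits. Their genes were taken by symbol from the annotation: names beginning with Rpl or Rps and a digit, the stalk genes Rplp0, Rplp1 and Rplp2, and Rpsa, protein-coding only, without genes named as pseudogenes, the Rps6k kinases and Rps19bp1. This gave 85 genes of the 55335 in the table, 52 of the large subunit and 33 of the small subunit. RNA came from RAW 264.7 cells, a mouse macrophage line labelled wild type, in 2 groups of 3 libraries. In the LPS plus ultrasound group, cells received 200 ng/ml lipopolysaccharide (LPS) for 8 h and, within that time, 10 min of 1 MHz ultrasound. The intensity was 50 mW/cm², given as 200 µs pulses repeated at 1 kHz, so that the sound was on for 20% of the time. In the LPS group, cells received the same LPS and no ultrasound. LPS is a bacterial cell wall component that starts an inflammatory response through the receptor TLR4, and both groups carry it, so nothing here measures the response to LPS itself. Nothing in the labels tells if the replicates were grown as separate cultures, so each p-value reflects library-to-library spread alone, and that spread may be technical. RAW 264.7 is a single transformed line.

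Ribosomal protein mRNAs are among the most abundant mRNAs of a growing cell, and the cell needs the proteins in near-equal amounts. Most of these mRNAs start with a run of pyrimidines, the terminal oligopyrimidine (TOP) tract, through which the mTORC1 kinase and the RNA-binding protein LARP1 set how much they are translated. Each working gene has many processed pseudogenes, copies of its mRNA put back into the genome, and a few have a second functional gene, a paralog, with its own expression pattern.

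The stretch around the annotated transcription start holds a long pyrimidine run in some of these genes and a short one in others. The RefSeq promoter table (build GRCm38.p6) held 65 of the 85 genes. Below are 30 bases from each, 20 before the annotated start and 10 from it onward, on the gene's strand, with the longest run of C and T in capitals. They were chosen to show long runs in Rps6, Rps10 and Rpl35a, and to set the paralogs Rps27l, Rpl22l1 and Rpl7l1, described further on, beside the parents Rps27 and Rpl22. Rpl22 is shown at both of its annotated starts.
Rps6, chr4:86857358-86857387, minus strand: gggttaagcggaagtcgggCCTCTTTTTCg
Rps10, chr17:27635235-27635264, minus strand: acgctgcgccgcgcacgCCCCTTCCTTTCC
Rpl35a, chr16:33056462-33056491, plus strand: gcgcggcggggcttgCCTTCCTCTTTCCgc
Rps27, chr3:90213639-90213668, minus strand: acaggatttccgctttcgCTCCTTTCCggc
Rps27l, chr9:66946066-66946095, plus strand: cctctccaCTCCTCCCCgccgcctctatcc
Rpl22, chr4:152325706-152325735, plus strand: ccgaCTTCgccctgggaaaagcaatagctg
Rpl22, chr4:152324416-152324445, plus strand: atcagcgctgCTTCTggaatgttccagctc
Rpl22l1, chr3:28805488-28805517, plus strand: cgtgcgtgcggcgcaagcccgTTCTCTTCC
Rpl7l1, chr17:46782647-46782676, minus strand: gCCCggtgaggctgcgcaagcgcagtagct
The run is 10 bases in Rps6, 13 in Rps10 and Rpl35a, and 9 in Rps27, Rps27l and Rpl22l1, while it is 4 and 5 at the starts of Rpl22 and 3 in Rpl7l1. The other annotated starts of Rpl35a have runs of 4, and a further start of Rps27l, not shown, also has a run of 4. At the start shown, the run of Rps27l ends before the annotated start, while that of Rps27 spans it.

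A pyrimidine run of at least 8 bases lay in this 30-base window for 28 of the 65 genes (43.1%), against 14.5% of the 27025 genes of the table. The letters CTCTTTC, a short pyrimidine run that can lie within the longer one, were found on either strand of the 300-base window in 27.7% of the ribosomal protein genes and in 9.28% of all genes. The ETS factor motif ACTTCCG was found in 33.8% of the ribosomal protein genes and 7.204% of all genes, and AAGATGGC, the core of the YY1 motif, in 9.23% and 3.19%. Both strands were searched, and the motifs can overlap each other by no more than an end base. A match describes the letters in the window and shows no binding.

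Levels are FPKM as computed by the authors, which scale fragments by transcript length and by the library's mapped fragments. Group values are means ± SD over the 3 libraries of a group. Depth is unknown, since the table holds no counts. Summed FPKM ran from 278871 to 292200 per library, and 11128 to 11299 genes reached 1 FPKM. All 10 macrophage markers reached a mean of 1 FPKM. None of the markers looked up for skeletal muscle, fibroblasts, endothelium, T cells, B cells, neutrophils, erythroid cells and germ cells did. On the first principal component of all tested genes, LPS library 2 lay at -28.8 and the others between -2.03 and 17.7. Named genes and lists that this library moves most are also given without it.

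Ribosomal protein mRNA held a share of 6.003% to 7.26% of each library. It made up 6.15%, 6.39% and 6.003% of summed FPKM in LPS plus ultrasound libraries 1, 2 and 3, and 6.33%, 7.26% and 6.54% in LPS libraries 1, 2 and 3. LPS library 2 was the highest, and the groups overlapped. The sum was 17834 ± 761 FPKM with LPS plus ultrasound and 19078 ± 1602 with LPS (SD, n = 3 each). This difference of -6.52% is less than the SD of the LPS sums. The mean share was 6.18 ± 0.197% with LPS plus ultrasound and 6.71 ± 0.486% with LPS, a relative difference of -7.84%. For the share the gap is slightly wider than the SD of the LPS libraries. Without LPS library 2 the LPS means were 18213 FPKM and 6.435%. The large subunit summed to 10707 ± 441 FPKM with LPS plus ultrasound and 11505 ± 978 with LPS, and the small subunit to 7128 ± 341 and 7573 ± 624. The ratio of large to small was 1.54, 1.48 and 1.48 in the LPS plus ultrasound libraries and 1.52, 1.52 and 1.51 in the LPS libraries, a difference of -1.08% between the group means. In bulk RNA, a lower share of these mRNAs and a higher amount of other RNA cannot be told apart.

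**Figure D1:**
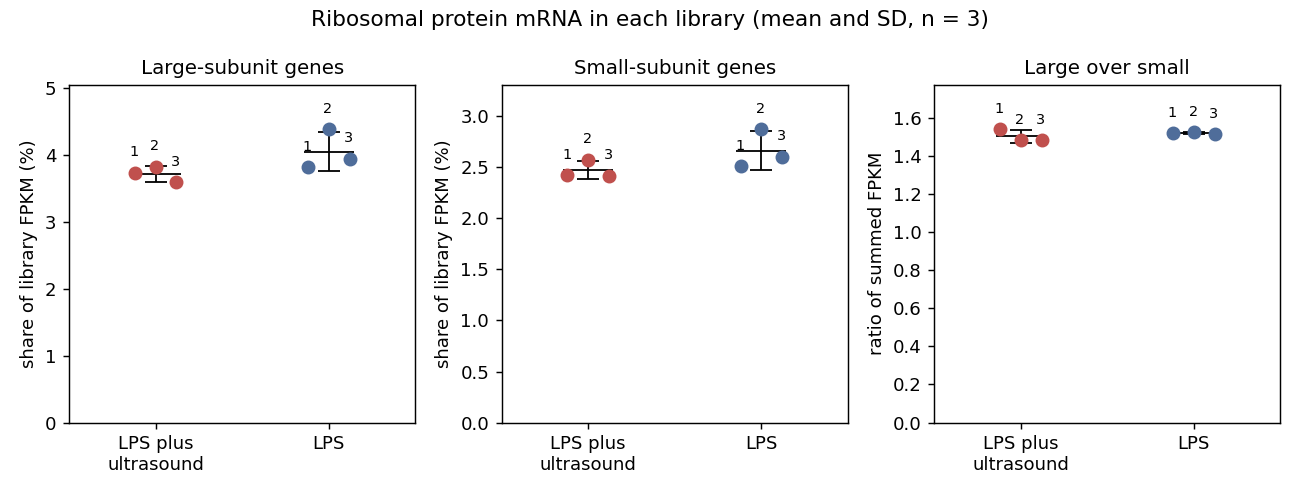
Share of summed FPKM held by large-subunit genes and small-subunit genes (percent), and the ratio of the 2 sums, for each library (points, numbered by replicate), with mean and SD for LPS plus ultrasound and LPS (n = 3 each). LPS library 2 has the highest shares, 4.38% and 2.87%, and the ratio stays between 1.48 and 1.54 in all 6 libraries.

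The genes spanned a wide range of levels. Of the 85 genes, 82 averaged 1 FPKM or more across all libraries and were tested, and Rpl3l, Rpl10l and Rpl39l were not. The tested genes ran from 5.01 FPKM (Rpl22l1) to 1332 FPKM (Rplp1), a 266-fold range, with 57 at 100 FPKM or more. The 10 highest held 39.9% of the sum. They are not neighbours in the genome: the 85 genes lie on 19 chromosomes, at most 14 of them on chromosome 7. Coding sequences ran from 78 bases (Rpl41) to 1260 bases (Rpl4), and 30 genes hold 58 annotated small nucleolar RNAs between their ends on the same strand, 5 of them in Rpl4.

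The ribosomal stalk recruits the translation factors that hydrolyse GTP. It is built from the base protein Rplp0 and the acidic proteins Rplp1 and Rplp2. Rplp1, the most abundant of all 85 genes, had 1278, 1395 and 1263 FPKM with LPS plus ultrasound and 1217, 1491 and 1347 with LPS. Rplp0 had 785, 853 and 790 FPKM with LPS plus ultrasound and 773, 863 and 806 with LPS. Rplp2 lay at 122 ± 7.38 FPKM with LPS plus ultrasound and 128 ± 11.2 with LPS. The groups overlapped for each of the stalk genes, with log2 fold changes of -0.04 ± 0.09 for Rplp1, -0.01 ± 0.08 for Rplp0 and -0.06 ± 0.09 for Rplp2, each on the scale of log2(FPKM + 1) with its SE, a positive value meaning higher with LPS plus ultrasound. Without LPS library 2 the Rplp2 value was -0.02 and the signs of the Rplp0 and Rplp1 values turned, and that of Rplp0 also with median-ratio scaling. Quantile normalization moved the most abundant genes furthest, to -0.38 for Rplp1 and -0.23 for Rplp0.

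Among the other large-subunit genes, the most abundant was Rpl4, whose protein lines the exit tunnel of the ribosome. Rpl4 had 1106, 1123 and 1107 FPKM with LPS plus ultrasound and 1162, 1261 and 1152 with LPS. The groups were separate, all LPS libraries lying above all LPS plus ultrasound libraries, but the step was small (log2 fold change -0.10 ± 0.07, with -0.06 without LPS library 2 and -0.35 with quantile normalization). Rpl8 lay at 527 ± 45.3 FPKM with LPS plus ultrasound and 589 ± 46.7 with LPS, Rpl23a at 499 ± 15.5 and 551 ± 31.1, and Rpl19 at 465 ± 22.4 and 512 ± 41.3. Rpl10, a late-joining protein needed to complete the large subunit, was the steadiest within a group. It had 157.8, 157.8 and 158.2 FPKM with LPS plus ultrasound, an SD of 0.236, and 164, 174 and 164 with LPS.

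Among the small-subunit genes, Rps3a1 led with 785, 888 and 776 FPKM with LPS plus ultrasound and 796, 915 and 802 with LPS, overlapping groups. Rps15 lay at 581 ± 28.6 FPKM with LPS plus ultrasound and 638 ± 67.9 with LPS, Rps4x at 561 ± 28.5 and 593 ± 50.9, and Rps16 at 363 ± 13.3 and 377 ± 24.7. Rps6, the substrate that gave the S6 kinases their name, had 468, 491 and 454 FPKM with LPS plus ultrasound and 472, 566 and 498 with LPS. Only the first LPS library overlapped the range of the LPS plus ultrasound libraries for Rps6 (log2 fold change -0.12 ± 0.09, and -0.04 without LPS library 2).

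No ribosomal protein gene passed the test. In limma with Benjamini-Hochberg adjustment over all 11270 genes tested and a threshold of 0.05, 0 of 82 were higher and 0 lower, against 2 genes (0.0177%) in the whole table. At an unadjusted limma p below 0.05, 3 of the 82 were lower and 0 higher, against 9.16% lower and 6.18% higher among all genes. The groups were separate and lower for 9 of 82 genes (11%), against 13.4% of all genes, and separate and higher for 0, against 9.8%. These shares are near or below the background. The count of 9 became 44 without LPS library 1 (53.7%, against 18.9% of all genes) and 34 without LPS plus ultrasound library 2 (41.5%, against 24.1%).

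The direction of the small differences was shared. The log2 fold change was below 0 for 79 of 82 genes, against 53.9% of all genes, with a median of -0.09, against -0.02 for all genes tested. Of the 49 large-subunit genes 48 lay below 0, with a median of -0.12, and of the 33 small-subunit genes 31 did, with a median of -0.08. Scaling each library to the same sum, by median ratio or by quantiles left 80, 78 and 74 of the 82 below 0. Without LPS library 2, 58 of 82 genes lay below 0, against 6067 of 11255 among all genes. The medians were then -0.03 for the large and -0.02 for the small subunit, near the -0.02 of all genes. Without both libraries numbered 2, 73 of 82 lay below 0, with medians of -0.06 and -0.04. Among all genes 6243 of 11253 did, with a median of -0.02. Between same-numbered libraries, LPS plus ultrasound was lower than LPS for 36 of 82 genes in pair 1, 78 in pair 2 and 80 in pair 3. Among all 11270 genes tested it was lower for 6052, 5735 and 6332. The lean was thus not seen in pair 1.

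**Figure D2:**
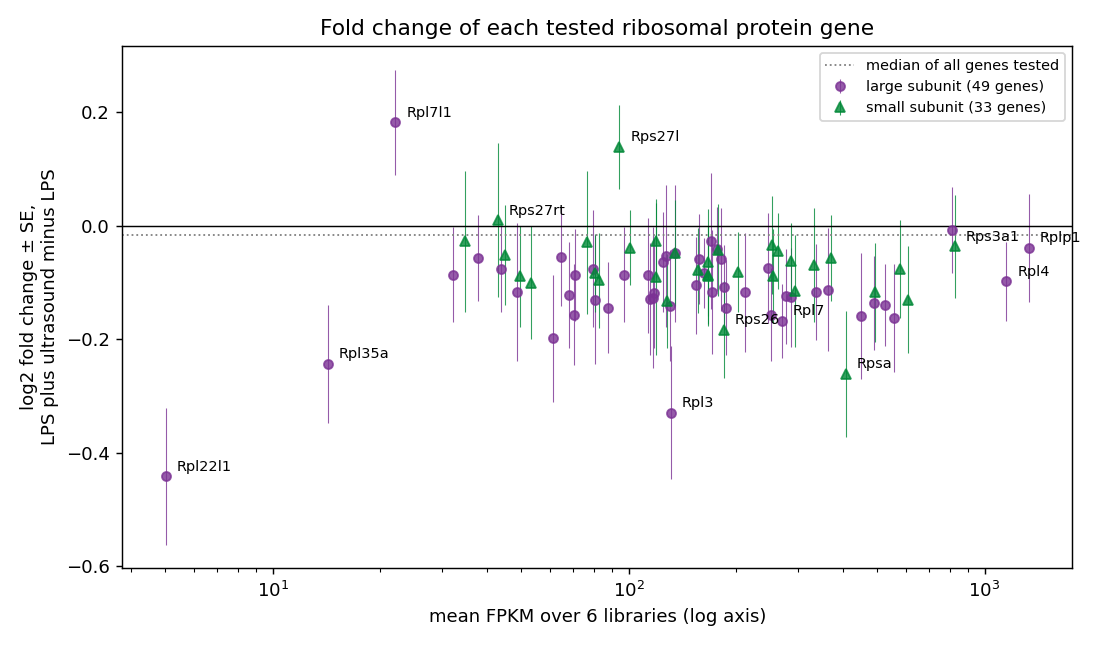
Log2 fold change with SE (LPS plus ultrasound minus LPS, pseudocount 1) against mean FPKM on a log axis for the 82 tested genes, large subunit as circles and small subunit as triangles. Most points lie just below 0, Rpl22l1 lies lowest at -0.44, and Rpl7l1 and Rps27l lie highest at 0.18 and 0.14.

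The genes moved together from library to library. LPS library 2 was the highest of the 6 for 74 of the 82 genes, LPS plus ultrasound library 3 was the lowest for 45 and LPS library 1 for 25. Among all 11270 genes tested, LPS library 2 was the highest for 3116 and LPS plus ultrasound library 3 the lowest for 2619. In LPS library 2 the median gene lay 0.20 above the mean of LPS libraries 1 and 3 on the log2 scale, and 81 of 82 genes were above that mean. Across the 6 libraries the median pairwise Pearson correlation was 0.83, within the large subunit, within the small subunit and between them 0.83, 0.83 and 0.82, while for all 1795 genes with at least 30 FPKM it was 0.01. These are descriptions over 6 libraries that all genes share. In the library that held most ribosomal protein mRNA, LPS library 2, the mitochondrially encoded genes summed to 18347 FPKM, the lowest of the 6, against 21663 to 27603 in the other 5. The part of that shift in the ribosomal protein values was not tested.

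**Figure D3:**
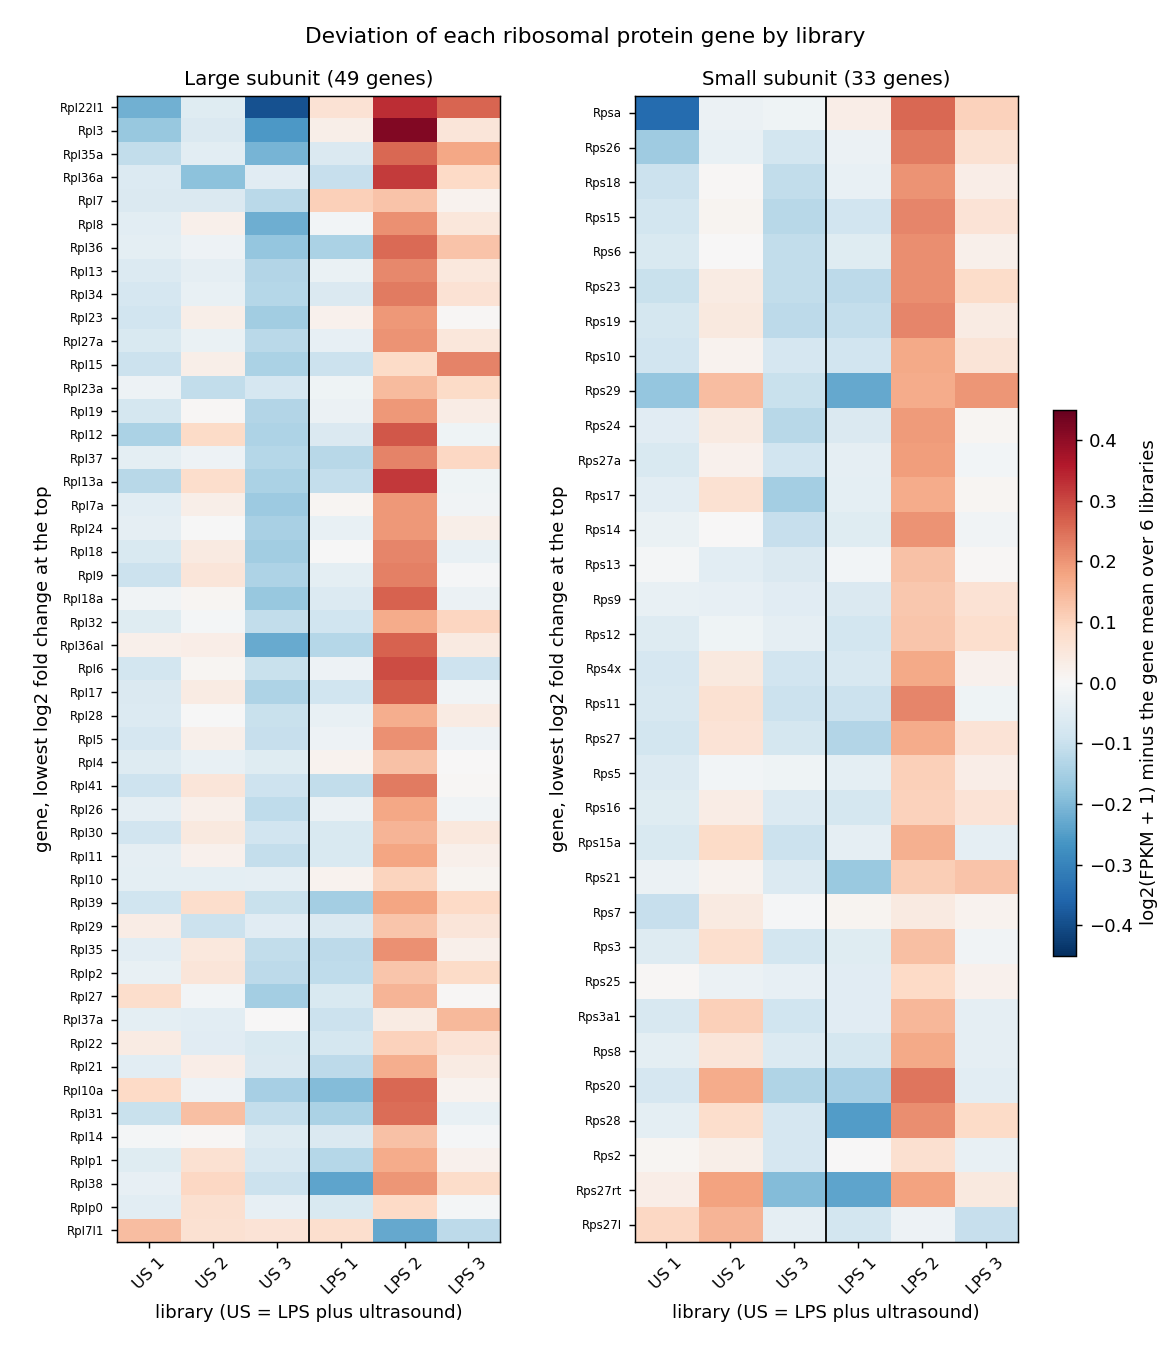
log2(FPKM + 1) of each tested gene in each library minus its mean over the 6 libraries, by subunit, with genes sorted by log2 fold change and LPS plus ultrasound libraries to the left of LPS libraries. The column of LPS library 2 is red for nearly all genes, and Rpl7l1 at the bottom of the large subunit shows the opposite pattern.

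The 6 genes with the smallest p among the lower ones were Rpl22l1, Rpl3, Rpl7, Rpsa, Rpl35a and Rps26. Rpl3, whose protein reaches toward the peptidyl transferase centre, had 115, 124 and 109 FPKM with LPS plus ultrasound and 132, 174 and 135 with LPS. The groups did not overlap, and LPS library 2 was far above the rest (-0.33 ± 0.12 on the log2 scale, Benjamini-Hochberg adjusted p = 0.27 in limma). Without that library the value was -0.20. Rpl7 had 257, 257 and 247 FPKM with LPS plus ultrasound and 290, 294 and 271 with LPS, separate groups with a narrow spread (-0.17 ± 0.07, Benjamini-Hochberg adjusted p = 0.30 in limma). The value was -0.14 when LPS library 2 was left out.

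Rpsa, also known as the laminin receptor precursor, had 319, 398 and 400.0 FPKM with LPS plus ultrasound and 414, 485 and 436 with LPS. The first LPS plus ultrasound library lay far below all others, and the groups were separate (-0.26 ± 0.11, limma with Benjamini-Hochberg adjusted p = 0.33). The value was -0.15 without that library. Rps26 had 165, 180.1 and 174 FPKM with LPS plus ultrasound and 181, 217 and 193 with LPS, separate by less than 1 FPKM (-0.18 ± 0.09). The Rps26 value was -0.11 without LPS library 2. Rpl35a had 13.1, 13.7 and 12.2 FPKM with LPS plus ultrasound and 13.5, 17.2 and 16.1 with LPS, so the first LPS library fell among the others (-0.24 ± 0.10). None of these genes passed, and with the replicate number as a block the smallest adjusted p was 0.075 (limma with Benjamini-Hochberg adjustment), for Rpl3 and Rpl22l1.

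Only 3 of the 82 genes had a positive log2 fold change, and all are paralogs: Rpl7l1, Rps27l and Rps27rt. Rpl7l1 encodes a relative of Rpl7 linked, in human cells, to assembly of the large subunit. It had 24.4, 23.2 and 23.0 FPKM with LPS plus ultrasound and 23.3, 18.6 and 20.3 with LPS, and only LPS library 1 reached the LPS plus ultrasound range (0.18 ± 0.09 on the log2 scale, Benjamini-Hochberg adjusted p = 0.39 in limma). Across the 6 libraries its correlation with the mean of the other genes was -0.88, the lowest of the 82, and it lay lowest in LPS library 2, where the others lay highest. Without LPS library 2 its log2 fold change was 0.11.

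Rps27l, known in human and mouse cells as a target of p53, had 100.4, 105 and 91.4 FPKM with LPS plus ultrasound and 88.8, 92.5 and 87.5 with LPS. It was higher in 3 of 3 same-numbered pairs, but the third LPS plus ultrasound library fell below the second LPS library (0.14 ± 0.07, limma with Benjamini-Hochberg adjusted p = 0.40). Its correlation with the mean of the other genes was -0.02, the second lowest. With median-ratio scaling or quantile normalization the groups became separate for both Rpl7l1 and Rps27l.

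Rpl22l1 is the paralog of Rpl22, a protein of the large subunit surface that, in mouse cells, is known to hold Rpl22l1 mRNA down. Rpl22l1 had 4.09, 4.69 and 3.51 FPKM with LPS plus ultrasound and 5.19, 6.46 and 6.10 with LPS. The groups were separate, and this was the largest difference of the 82 genes (-0.44 ± 0.12 on the log2 scale, Benjamini-Hochberg adjusted p = 0.22 in limma). The value was -0.38 when LPS library 2 was left out. Rpl22 itself had 38.6, 36.3 and 35.8 FPKM with LPS plus ultrasound and 35.6, 40.5 and 39.3 with LPS, overlapping groups (-0.06 ± 0.08, and -0.02 without LPS library 2).

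The balance of each paralog with its parent was compared within libraries for the 5 pairs in which both were tested. Rpl22l1 stood at 11.1 ± 1.62% of Rpl22 with LPS plus ultrasound and 15.3 ± 0.69% with LPS, and all LPS libraries lay above all LPS plus ultrasound libraries. The log2 ratio, taken like the fold changes on FPKM + 1, differed by -0.38 ± 0.10 (exact two-sided permutation test p = 0.1, adjusted over the 5 pairs 0.25). Rpl7l1 stood at 9.28 ± 0.245% of Rpl7 with LPS plus ultrasound and 7.28 ± 0.865% with LPS, again without overlap but in the other direction (0.35 ± 0.10, exact permutation p = 0.1, adjusted 0.25). With 3 libraries against 3, p = 0.1 is the smallest this exact test allows. The differences were -0.37 and 0.26 without LPS library 2.

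Rps27l stood at 63.5%, 59.9% and 57.8% of Rps27 with LPS plus ultrasound and 58.2%, 49.2% and 50.2% with LPS, which overlapped by 1 library (0.20 ± 0.09, exact permutation p = 0.2, adjusted 0.33). Rpl36al, nearly as abundant as its parent, stood at 81.8 ± 11.2% of Rpl36a with LPS plus ultrasound and 76.8 ± 0.747% with LPS (0.08 ± 0.11, exact permutation p = 0.6). Rps27rt stood at 26.2 ± 2.42% of Rps27 with LPS plus ultrasound and 24.8 ± 1.14% with LPS (0.07 ± 0.08, exact permutation p = 0.5). The log2 fold change of Rps27rt itself was 0.01 ± 0.14, and it turned to -0.01 with equal library sums. A p that misses the threshold does not show that these ratios are equal.

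**Figure D4:**
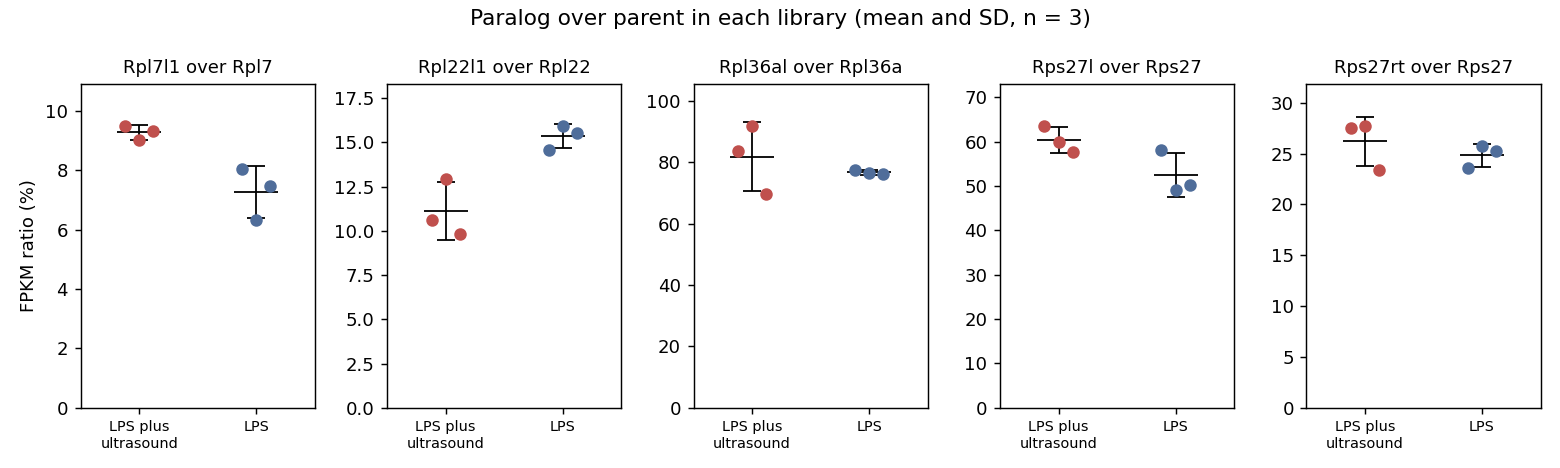
FPKM of 5 paralogs as a percentage of the parent gene in each library (points), with mean and SD for LPS plus ultrasound and LPS (n = 3 each). The groups do not overlap for Rpl7l1 over Rpl7, higher with LPS plus ultrasound, and for Rpl22l1 over Rpl22, lower with LPS plus ultrasound.

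The 3 genes below the filter are paralogs as well. Rpl3l, a paralog known from skeletal and heart muscle, had 0.531, 0.465 and 0.451 FPKM with LPS plus ultrasound and 0.310, 0.200 and 0.443 with LPS. Rpl10l and Rpl39l, known from the testis, were listed at 0 in all 6 libraries. The 8 skeletal muscle markers summed to 0.753 to 1.27 FPKM per library with LPS plus ultrasound and 0.740 to 1.12 with LPS, and the 5 germ cell markers to 0.0383 to 0.146 and 0.0413 to 0.0933.

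Paralogs differ in how well reads can tell them from the parent, as the first 120 bases of the coding sequences show. These come from the GENCODE M21 transcripts, with capitals marking bases that differ from Rps27.
Rps27: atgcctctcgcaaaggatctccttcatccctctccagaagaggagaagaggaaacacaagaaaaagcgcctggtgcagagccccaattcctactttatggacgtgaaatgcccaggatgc
Rps27l: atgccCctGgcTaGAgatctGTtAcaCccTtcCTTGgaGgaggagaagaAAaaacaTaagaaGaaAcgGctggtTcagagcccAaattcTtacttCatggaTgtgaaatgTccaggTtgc
Rps27l differs from Rps27 at 28 of these 120 bases and at 61 of all 255, so its reads can be assigned. The coding sequence of Rps27rt, on chromosome 9, is identical to that of Rps27, on chromosome 3, over all 255 bases. Reads within it cannot be told apart, so the values of Rps27rt and Rps27 depend on how the authors' software divided them. Coding identity was 50.1% for Rpl7l1 with Rpl7, 66.9% for Rpl22l1 with Rpl22, 87.9% for Rpl36al with Rpl36a, 85.3% for Rpl39l with Rpl39, 84.8% for Rpl10l with Rpl10 and 73.1% for Rpl3l with Rpl3.

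The same uncertainty reaches most of the family through near-identical copies. A search of the GENCODE M21 transcripts for at least 95% identity over at least 80% of a coding sequence found 574 other genes, 556 of them annotated as pseudogenes, and 77 of the 82 tested genes had at least 1 copy. Of these copies 214 had a mean of at least 1 FPKM. Copies held 40.4%, 40.6% and 40.3% of the summed FPKM of genes plus copies in LPS plus ultrasound libraries 1, 2 and 3, and 40.1%, 40.1% and 39.9% in LPS libraries 1, 2 and 3. For 23 of the 82 genes the copies held more FPKM than the gene. Rpl35a was the extreme, at 3.17% of the sum of itself and its 14 copies, and Rps2, a core small-subunit protein gene, averaged 119.7 FPKM over the 6 libraries, against 659 FPKM for the pseudogene Rps2-ps10 alone. The value of a gene with such copies depends on how the authors' software divided the reads among them.

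Adding the copies left most differences where they were. The median log2 difference of gene plus copies was -0.09, below 0 for 77 of 82. The groups were separate and lower for 7 of 82 and separate and higher for 1 (Rps18), against 13.4% and 9.8% of all genes tested. Rpl3 with its 7 copies differed by -0.30, against -0.33 alone. Its most abundant copy, the pseudogene Rpl3-ps1, had 166, 183 and 154 FPKM with LPS plus ultrasound and 186, 243 and 190 with LPS. The order of libraries was the same as for the gene. Reads may be divided between such near-identical sequences, so this order is not independent of the gene. Rpl35a lay at -0.14 with its copies, against -0.24 alone. Among the 214 copies tested 0 passed (limma with Benjamini-Hochberg adjustment, smallest adjusted p = 0.21). At an unadjusted limma p below 0.05, 7 of the 214 were lower and 2 higher, against 9.16% and 6.18% of all genes.

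Rps18 differed most, at 0.70 with its copies against -0.13 alone. The copy behind this is Gm10260, annotated as protein-coding and 99.1% identical to the Rps18 coding sequence. It had 98.9, 219 and 154 FPKM with LPS plus ultrasound and 63.7, 0 and 0 with LPS. Rps18 itself had 119.8, 129 and 119 FPKM with LPS plus ultrasound and 125, 148 and 131 with LPS. A value of exactly 0 in a table without counts can be a failed estimate, so no fold change is given for Gm10260, and it was named after its values were seen.

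**Figure D5:**
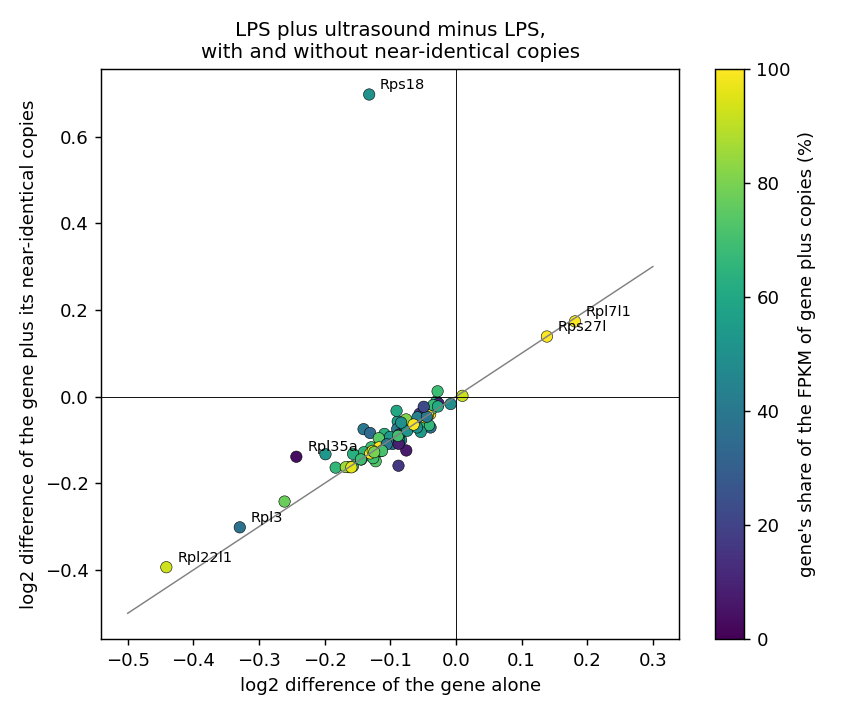
Log2 difference, LPS plus ultrasound minus LPS, of each tested gene plus its near-identical copies (vertical) against the gene alone (horizontal), coloured by the gene's share of the summed FPKM in percent. Most points lie near the grey line of equal values, and Rps18 lies farthest from it, at 0.70 with its copies and -0.13 alone.

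Ribosomal protein genes under other names had values in the same range. Rack1, a signalling scaffold on the small subunit, had 199 ± 14.3 FPKM with LPS plus ultrasound and 212 ± 4.85 with LPS. Fau, a ubiquitin-like fusion with a small-subunit protein, had 316 ± 23.2 FPKM with LPS plus ultrasound and 337 ± 33.7 with LPS. The log2 fold changes were -0.10 ± 0.07 for Rack1 and -0.09 ± 0.10 for Fau (-0.01 without LPS library 2), and neither passed in limma.

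Other genes with TOP mRNAs, mostly translation factors, lay slightly lower too. Of 15, 14 had a log2 fold change below 0, with a median of -0.10, and 0 passed in limma. At an unadjusted limma p below 0.05, 1 was lower and 0 higher. Among all genes 9.16% were lower and 6.18% higher, the background also for the lists below. The groups were separate and lower for 6 of the 15 and separate and higher for 0, against 13.4% and 9.8% of all genes. Without LPS library 2 the median was -0.05. Eif3f, a subunit of an initiation factor, had 90.7, 86.0 and 85.2 FPKM with LPS plus ultrasound and 97.0, 98.4 and 94.98 with LPS, separate groups (-0.15 ± 0.06, limma with Benjamini-Hochberg adjusted p = 0.32). Naca, which guides nascent chains, lay at 49.2 ± 1.16 FPKM with LPS plus ultrasound and 55.7 ± 4.17 with LPS, also separate (-0.17 ± 0.08, and -0.11 without LPS library 2).

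The genes that build ribosomes did not share this lean. Of 46 biogenesis and assembly genes, 20 lay below 0 and 26 above, with a median of 0.03 (0.00407 without LPS library 2 and -0.0076 without both libraries numbered 2), and 0 passed, with 2 lower and 2 higher at an unadjusted limma p below 0.05. Sbds, which frees new large subunits for translation, lay at 25.04 ± 2.15 FPKM with LPS plus ultrasound and 30.8 ± 2.71 with LPS (-0.29 ± 0.10). The nucleolar chaperone gene Npm1 had 138, 136 and 133 FPKM with LPS plus ultrasound and 156, 239 and 161 with LPS, with LPS library 2 far above the rest (-0.42 ± 0.16, and -0.23 without it). Of 12 RNA polymerase I and Myc genes, 10 were matched and 9 tested, with 6 below 0 and a median of -0.05. Polr1c, a subunit shared by RNA polymerases I and III, lay at 13.4 ± 0.421 and 15.6 ± 0.762 FPKM, and the large subunit gene Polr1a at 8.84 ± 0.186 and 7.69 ± 0.749, for LPS plus ultrasound and LPS.

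Of 15 genes of mTORC1, the S6 kinases, the eIF4E-binding proteins and LARP1, 8 lay below 0, with a median of -0.04, and 0 passed (0 lower and 1 higher at an unadjusted limma p below 0.05). The median turned to 0.03 without LPS library 2, 0.04 without both libraries numbered 2, 0.00538 with quantile normalization and 0.07 with array weights, so the list has no steady direction. The initiation scaffold gene Eif4g1 lay at 70.4 ± 1.07 FPKM with LPS plus ultrasound and 61.6 ± 4.54 with LPS (0.19 ± 0.07), and Tsc1, a brake on mTORC1, at 5.19 ± 0.244 and 6.10 ± 0.391 (-0.20 ± 0.09). Of 10 genes that rescue stalled ribosomes, 6 lay below 0, with a median of -0.14, and 0 passed (1 lower and 1 higher at an unadjusted limma p below 0.05). Zfp598, in human cells the ubiquitin ligase that marks collided ribosomes on small-subunit proteins, had 34.9, 30.5 and 31.5 FPKM with LPS plus ultrasound and 42.8, 42.0 and 42.4 with LPS, a wide gap between the groups (-0.38 ± 0.07, limma with Benjamini-Hochberg adjusted p = 0.15). Rnf10, in human cells a ubiquitin ligase for the small-subunit proteins Rps2 and Rps3, lay at 41.3 ± 1.90 FPKM with LPS plus ultrasound and 34.3 ± 2.59 with LPS (0.26 ± 0.08).

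The genes that varied most within a group were Rps29, Rps27rt, Rps20 and Rpl10a. Rps29 had 105, 131 and 111 FPKM with LPS plus ultrasound and 100.8, 133 and 136 with LPS. Rps20 had 72.3, 85.8 and 69.3 FPKM with LPS plus ultrasound and 68.7, 90.3 and 73.8 with LPS. Rpl10a had 135, 125 and 114 FPKM with LPS plus ultrasound and 111, 152 and 129 with LPS, and Rps27rt 43.5, 48.5 and 37.1 with LPS plus ultrasound and 35.9, 48.4 and 44.0 with LPS. For each of the 4 the groups overlapped widely. Over the 82 genes, the Pearson and Spearman correlations of the log2 fold change were -0.13 and -0.12 with log2 coding length and 0.08 and -0.10 with log2 mean FPKM. They were 0.02 and -0.13 with coding GC content and -0.05 and -0.19 with the number of copies, each a description across genes that share their libraries. The 30 genes that hold small nucleolar RNAs had a median of -0.10 on the log2 scale, and the 52 tested genes that hold none had -0.09.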

How the data were processed

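Oligo(dT)-selected RNA of RAW 264.7 macrophages was read as paired ends, per the labels. The authors deposited FPKM for 55335 mouse Ensembl gene identifiers. Which aligner, quantifier and annotation they used is not given in the sources used here. A rat build, mRatBN7.2, stands in the submitters' processing notes and rat muscle in the labels' extraction text, while all identifiers are mouse ones. The files hold no coordinates. Symbols, gene types and transcripts came from GENCODE M21 and promoter sequences from RefSeq.

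The fit covered the 11270 genes averaging 1 FPKM or more (44065 were removed). It used limma 3.58.1 (R 4.3.3) on log2 values of the deposited FPKM plus a pseudocount of 1, with trended, robust variance moderation and Benjamini-Hochberg adjustment over all of them, two-sided. Simulated data for LPS plus ultrasound versus LPS, with 11270 genes and 50 changed per fold size, gave a recovery of 62% at 1.5-fold, 74% for 2-fold, 96% for 3-fold and 98% for 4-fold changes, with 8 false calls among the unchanged genes. The simulated noise was independent between genes and libraries, with the genes' spreads shuffled, so no shift was shared by a whole library. Changes were placed only in genes above a set level. The rates may not hold for the real libraries. Copies were found with BLAST 2.17.0. Columns were matched to libraries by the initial and number of the titles. Deviations from the group means correlated at 0.18, 0.44 and 0.41 between same-numbered libraries, across genes. Differently numbered libraries were not compared in this way. The numbers were taken to pair libraries only in the block fit and in the comparisons of same-numbered libraries. The main fit and the exact permutation tests were unpaired. Other scalings, pseudocounts, filters, variance settings and left-out libraries were tried.

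The gene family, lists and alternatives were chosen with earlier results of these data known. Genes named were the 6 most abundant per subunit, the 6 with the smallest p per direction, paralogs with parents, the 4 most variable, those below the filter, the stalk genes and Rpsa, the 2 with the smallest p in each list and the genes under other names, of which 1 is not reported here.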

Additional observations from a re-analysis of the deposited data

How the results depend on the processing

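No ribosomal protein gene passed the adjusted threshold in any of the 16 alternatives run, in either direction. The smallest adjusted p over all of them was 0.062, for Rpl22l1 with array weights (limma with Benjamini-Hochberg adjustment). With array weights 223 genes of the whole table passed, against 2 in the main fit. With the replicate block 0 of the 82 passed as well, 9 genes were separate and lower, and the medians were -0.12 and -0.08 as without the block. At an unadjusted limma p below 0.05, 13 of the 82 were lower and 2 higher with the block, against 3 and 0 without it. Among all 11270 genes, those lower at this level went from 1032 to 1923, a larger share with the block than the 13 of 82. Genes of the whole table past the adjusted threshold went from 2 to 13. The median of the large subunit ran from -0.16 to -0.03 and that of the small subunit from -0.13 to -0.02 when each library was left out in turn, nearest to 0 without LPS library 2. Separate and lower genes, 9 as reported (11%, against 13.4% of all genes), numbered 23 with equal library sums (28%, against 15.9%). They numbered 17 with quantile normalization (20.7%, against 11.8%) and 6 with median-ratio scaling (7.32%, against 11.8%). Without both libraries numbered 2 (added after the data were seen) they numbered 34 (41.5%, against 28.3%). They numbered 9 to 44 when each library was left out, where the share of all genes ran from 16.6% to 24.1%. Separate and higher genes, 0 as reported, numbered 1 without a filter (Rpl3l), 2 with median-ratio scaling and 2 with quantile normalization (Rpl7l1 and Rps27l in both), 1 without both libraries numbered 2, and 0 to 1 when each library was left out. Of the 30 named genes tested, 21 kept their sign throughout. Rps27rt had a log2 fold change of -0.0106 with equal sums and -0.00924 with quantile normalization, and ran from -0.11 to 0.11 over the left-out libraries. Rplp0 had 0.0113 with median-ratio scaling and ran from -0.0461 to 0.0348. With array weights Rpl22 was 0.0233, Rpl10a 0.113 and Rpl36al 0.00593, and without both libraries numbered 2 Rpl10a was 0.0605. Over the left-out libraries Rpl10a ran from -0.165 to 0.0632, Rps20 from -0.121 to 0.0831, Rplp1 from -0.113 to 0.0340, Rps3a1 from -0.0988 to 0.0284 and Rps27 from -0.146 to 0.00337. The cause of these turns was not tested. Depth is unknown, so no limit from counting error can be given.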
